A study of Mus musculus with 60 samples.

Results

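The genes described here lie on the distal part of mouse chromosome 5, with a start from 100 to below 122 Mb in the GRCm38 coordinates of the count table. Adgrl3, the gene disrupted in these mice, lies on the same chromosome (81020138 to 81825133), and its end is 18.2 Mb before the segment. Of the protein-coding genes with such a start, 10 are left out by name or name prefix (Cplx1, Idua, Rph3a, Nos1, Cux2, Rpl5, Rpl6, Rplp0, Cox6a1 and Atp5k). The other 258 genes, out of 21950 in the table, are the members, taken by position and name. All 258 had at least 1 read; 216 passed the filter on low counts in at least 1 comparison of KO with WT, and 42 passed it in none. A mean of at least 1 CPM (a count relative to its TMM-scaled library total) over the libraries was reached by 191 members, and 13 had a mean under 0.01 CPM.

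RNA was sequenced from hippocampus, prefrontal cortex and striatum of mice of the genotypes Adgrl3 -/- (KO) and Adgrl3 +/+ (WT), killed at 65 to 76 days of age, with 10 libraries per genotype and region and 60 in all. Adgrl3, also written Lphn3, codes for latrophilin-3, a cell-adhesion receptor of neurons that couples to G proteins. The sources used here give no strain, sex, litter or origin of the allele; 12 mice per genotype are named, and no label ties a library to a mouse. Equally numbered libraries of a genotype were taken as 1 animal: outside chromosome 5, a library's deviation from its group correlated best with the equally numbered library of another region for 7 to 10 of the 10 numbers. Library totals ran from 38985577 to 51387833 counts, and the members took 0.941% to 1.12% of them. In each region Adgrl3 was lower in every KO library than in every WT library. Its log2 difference, KO minus WT, was -1.84 ± 0.044 (SE) in hippocampus, -2.09 ± 0.13 in prefrontal cortex and -1.96 ± 0.062 in striatum. The 3 libraries numbered WT 5 stood apart at several genes of chromosome 5 while their Adgrl3 level was 121, 158 and 153 CPM in hippocampus, prefrontal cortex and striatum, inside the WT range. Results that rest on them are given with and without them. WT replicate 5 was singled out on the same levels that the tests use. Leaving out a library that lies toward the other genotype narrows the spread and tends to lower the p-value. The p-values and calls without it, or without a KO library named for its place, therefore describe dependence on that library and add no support.

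As background, genes that lie near each other on a chromosome are inherited together unless recombination separates them, and the members share a position, not a function. Coro1c encodes coronin 1C, which binds actin filaments and their branching complex, and Ssh1 encodes a slingshot phosphatase, which activates the actin-severing protein cofilin. Gcn1l1 (now Gcn1) encodes a ribosome-bound protein that activates the kinase Gcn2 when amino acids run short, and Hspb8 encodes a small heat shock protein that works with Bag3 in chaperone-assisted autophagy. Tmem119 is a surface protein used as a marker of resident microglia.

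Along the segment, few members passed the test over all genes, and those that did were in both directions. In hippocampus 4 of 207 tested members passed an adjusted p of 0.05, while 0.128% of all 15581 tested genes did. Ssh1 and Gcn1l1 were higher in KO (0.0578% of all genes), and Coro1c and Hspb8 were lower (0.0706%). In prefrontal cortex 2 of 208 members passed, against 0.117% of all genes tested; Gcn1l1 was higher (0.065% of all genes) and Coro1c lower (0.052%). In striatum the 1 member of 206 that passed was Gcn1l1, higher in KO, against 0.0514% of all genes (0.0193% higher and 0.0321% lower). On counts summed over the 3 regions of an animal, 5 of 216 passed, against 0.162% of all genes: Gcn1l1 and Mvk were higher (0.066% of all genes), and Coro1c, Hspb8 and Pde6b were lower (0.0959%). No member passed the interaction test, which asks if KO and WT differ by unequal amounts in the 3 regions (0 of 214 with edgeR and 0 with DESeq2, against 0.0248% of all genes). That fit takes the 60 libraries as independent; with a term for each of the 20 animals, 0 members and 0 of all genes passed. In the former fit 11 members, 5.14%, had an unadjusted p under 0.05, against 3.96% of all genes.

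**Figure D1:**
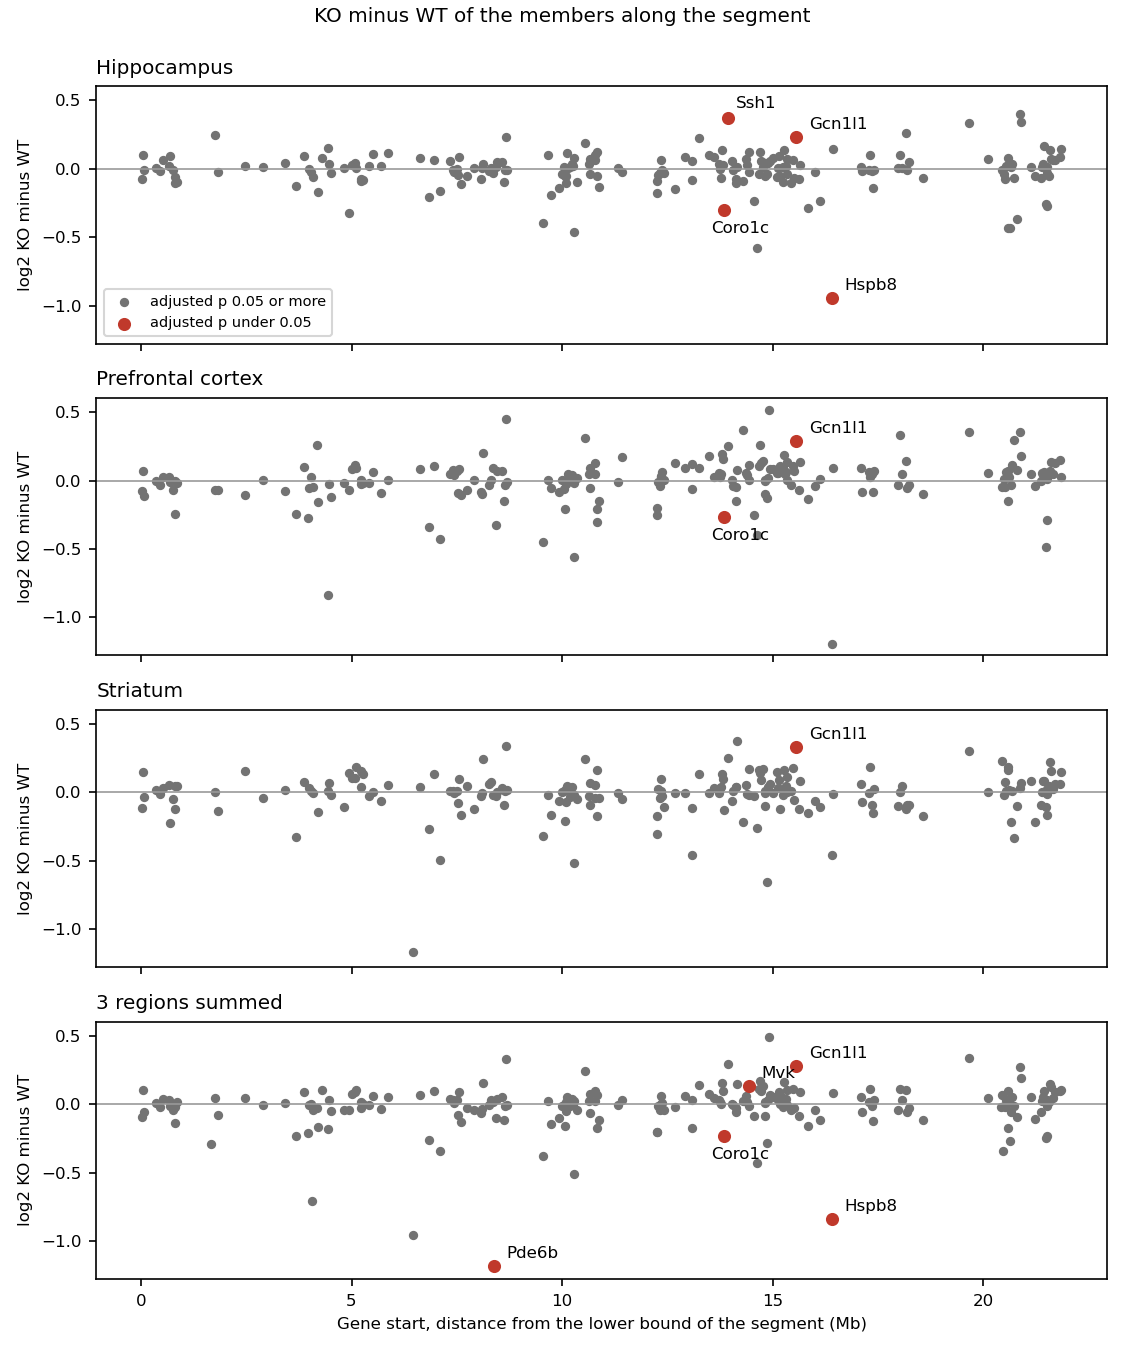
Log2 difference KO minus WT (vertical axis) of each tested member against the distance of its start from the lower bound of the segment in Mb (horizontal axis), in 3 regions and in the summed counts. Red points passed the adjusted p of 0.05 and are named; the 4 of hippocampus, 2 of prefrontal cortex and 1 of striatum lie between 13 and 17 Mb, with points on both sides of 0.

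At an unadjusted p under 0.05 there were 48 members in hippocampus (23.2%, against 8.14% of all genes), 54 in prefrontal cortex (26%, against 11.8%) and 51 in striatum (24.8%, against 7.14%). In the summed counts 67 of 216 were under it (31%, against 10.5%), 41 of them higher in KO (against 5.5% of all genes) and 26 lower (against 5.04%). From 70 Mb to the segment, a stretch with Adgrl3 in it, 31.2% of 112 tested genes were under this p in the summed counts, while on the rest of chromosome 5 it was 12% of 677 and on other chromosomes 10% of 15661. By the adjusted p, 15 of the 112 genes of that preceding stretch, 1 of 677 on the rest of the chromosome and 4 of 15661 elsewhere passed. Of the 10 genes left out by name, 2 passed in hippocampus, 3 in prefrontal cortex, 0 in striatum and 2 in the summed counts. The median size of the difference, regardless of sign, was 0.054 on the log2 scale for the members in the summed counts and 0.039 for all genes. With its sign the median was 0.006, and 114 members lay above 0 and 102 below.

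Split into windows of 2 Mb, the segment had shares that differed between windows. The windows held 7 to 42 tested members in the summed counts and were not tested against each other. The window from 114 to 116 Mb holds the most members, 48, of which 42 were tested in the summed counts and 16 (38.1%) had an unadjusted p under 0.05, 13 of them higher in KO. In the windows from 106 to 108 and from 108 to 110 Mb, 6 of 14 and 8 of 19 were under it, and more were lower than higher (4 and 5 lower). The thinly filled windows from 116 to 118 and from 118 to 120 Mb had 5 of 12 (41.7%) and 4 of 7 (57.1%), with 3 and 1 of them lower in KO. From 104 to 106 Mb the share was 9.52% (2 of 21), near the 10.5% of all genes. The last window, from 120 to 122 Mb, had 11 of 34, of which 10 were higher. At the bounds of the segment, the first tested gene inside, Hnrnpdl, an RNA-binding protein, differed by -0.09 ± 0.056 in the summed counts, and the last, Fam109a, by 0.10 ± 0.038; neither passed (adjusted p 0.592 and 0.320). Just outside, 4930524J08Rik differed by 0.01 ± 0.11 and Myl2, a cardiac myosin light chain, by -0.34 ± 0.19 (adjusted p 0.995 and 0.545).

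**Figure D2:**
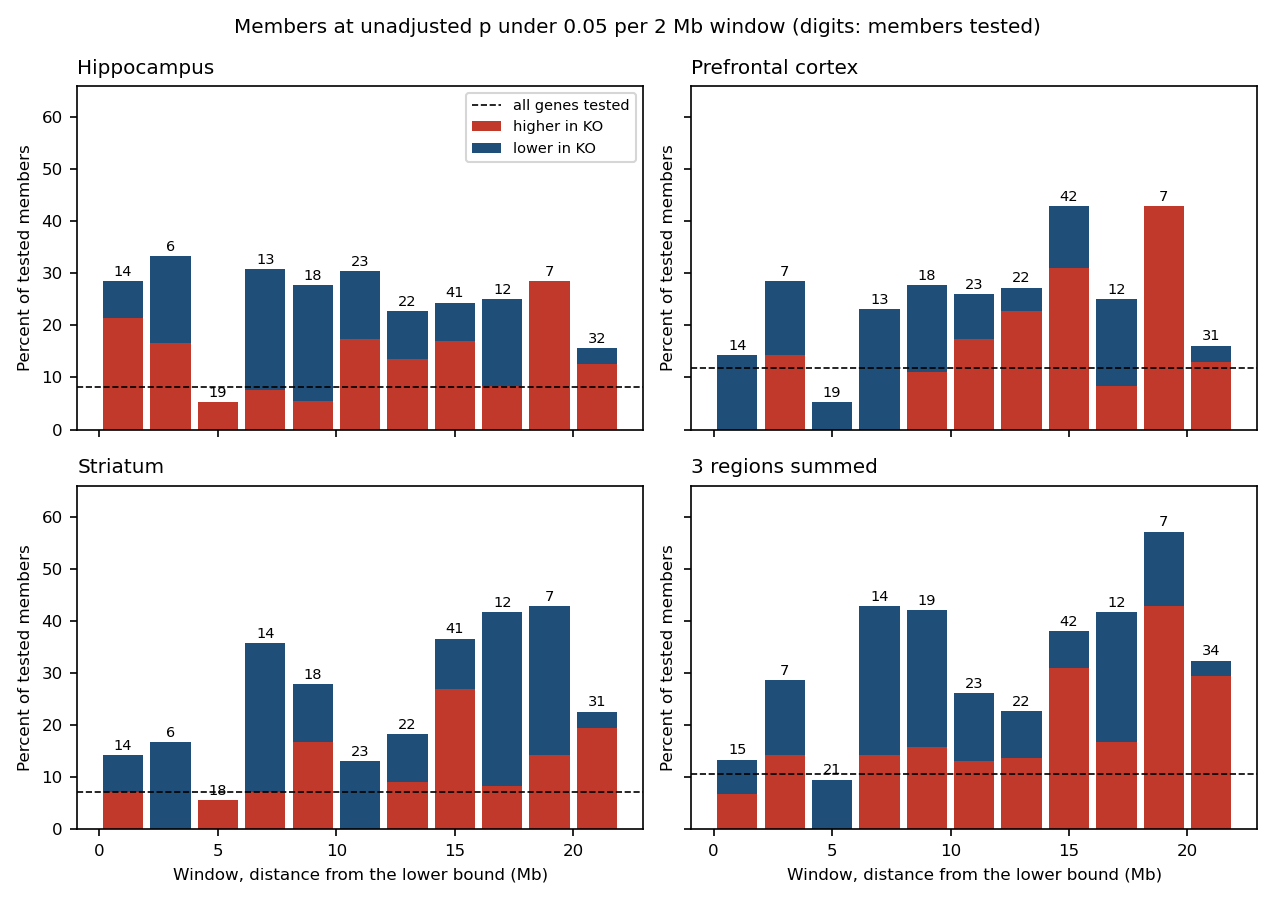
Share of tested members with an unadjusted p under 0.05 (vertical axis, percent) in windows of 2 Mb by distance from the lower bound in Mb (horizontal axis), higher in KO in red and lower in blue, with the number tested above each bar and the share of all genes as a dashed line. The window at 4 to 6 Mb is under the dashed line in each panel; the window at 14 to 16 Mb is above it in each panel and is mostly red.

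The bases before the starts of the 4 members that passed in hippocampus are printed to show promoters of genes that differed in opposite directions. Of these genes only Coro1c and Ssh1 are neighbours, 28.3 kb apart. The bases come from RefSeq (GRCm38.p6) and are written 5′ to 3′ on the strand of the gene. They are cut to the bases before both the RefSeq start and the start in the count table. Hspb8 is at chr5:116422865-116423114, Coro1c at chr5:113908759-113908956 and Ssh1 at chr5:113993895-113994040, all on the minus strand, and Gcn1l1 (Gcn1 in RefSeq) is at chr5:115565013-115565253 on the plus strand. Capitals mark the GC box GGGCGG or its reverse complement.
Hspb8: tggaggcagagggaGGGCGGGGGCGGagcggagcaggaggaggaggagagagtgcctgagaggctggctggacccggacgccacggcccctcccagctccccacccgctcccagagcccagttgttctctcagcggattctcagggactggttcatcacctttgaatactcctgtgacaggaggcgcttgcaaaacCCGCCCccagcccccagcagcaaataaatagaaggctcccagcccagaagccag
Coro1c: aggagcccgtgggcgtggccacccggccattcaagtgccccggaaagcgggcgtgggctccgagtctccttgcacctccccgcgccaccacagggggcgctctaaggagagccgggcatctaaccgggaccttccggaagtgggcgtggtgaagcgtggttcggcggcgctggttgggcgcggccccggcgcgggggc
Ssh1: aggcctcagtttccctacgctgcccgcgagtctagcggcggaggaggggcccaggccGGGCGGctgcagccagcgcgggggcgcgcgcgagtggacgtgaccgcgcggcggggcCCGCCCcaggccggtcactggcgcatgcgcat
Gcn1l1: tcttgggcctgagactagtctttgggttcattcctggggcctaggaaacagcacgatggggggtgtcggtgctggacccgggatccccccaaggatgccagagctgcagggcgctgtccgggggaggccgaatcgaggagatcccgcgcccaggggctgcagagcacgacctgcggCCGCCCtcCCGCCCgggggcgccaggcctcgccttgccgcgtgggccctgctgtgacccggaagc
Hspb8 holds 3 GC boxes in this window, Ssh1 and Gcn1l1 hold 2 each, and Coro1c holds 0; 32.7% of 32851 RefSeq promoters of 250 bases hold at least 1. The CCAAT box CCAAT (33.8% of promoters) and the TATA box TATAAA (12.4%) were searched on both strands and were in none of the 4. The heat shock element was searched only as GAANNTTC (6.69%), which reads the same on both strands, and this form was in none of the 4. Other orders of its GAA and TTC units were not searched, so absence of the element from these windows is not shown. The GC content was 64.4%, 73.2%, 78.1% and 70.5% for Hspb8, Coro1c, Ssh1 and Gcn1l1, against a median of 52.4% over the promoters of 250 bases. The 3 windows of Coro1c, Ssh1 and Gcn1l1 are shorter than 250 bases (198, 146 and 241), so their motif counts are not on the same length.

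Among the cytoskeletal members, Coro1c fell and Ssh1, the next gene along the chromosome, rose. They are on the same strand, 28.3 kb apart (Coro1c 113842436 to 113908758, Ssh1 113937094 to 113993894), with no other gene of the table between them. In hippocampus Coro1c ran from 66.5 through a median of 91.6 to 100.2 CPM in WT and from 67.0 through 71.2 to 81.3 CPM in KO. The lowest WT library was replicate 5; without it the next lowest was 86.7, above every KO library, so the groups overlap only through replicate 5. The difference was -0.31 ± 0.053 (adjusted p 0.0133) and -0.35 ± 0.035 without WT replicate 5 (5.537e-06). In prefrontal cortex Coro1c ran from 68.7 through 83.8 to 95.9 CPM in WT and from 64.0 through 68.2 to 82.2 CPM in KO, a difference of -0.27 ± 0.051 (adjusted p 0.0327; -0.30 and 0.00215 without WT replicate 5). WT replicate 5 was again the lowest WT library, and KO replicate 8 was alone at the top of KO. In striatum the range was 81.0 to 88.2 CPM in WT (median 85.8) and 73.5 to 82.2 in KO (median 78.9), with a difference of -0.13 ± 0.026 that did not pass (adjusted p 0.0833) and passed without WT replicate 5 (0.0450).

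Ssh1 ran from 24.3 through 25.2 to 35.0 CPM in WT hippocampus and from 29.3 through 34.4 to 36.3 in KO. The WT library at 35.0 was replicate 5, and the other 9 ended at 26.6, under every KO library. The difference was 0.37 ± 0.059 (adjusted p 0.00675), and 0.42 ± 0.040 without WT replicate 5 (2.269e-06). In prefrontal cortex WT ran from 22.4 through 23.4 to 35.5 CPM and KO from 23.1 through 30.01 to 35.0. The highest value of all was again WT replicate 5, and KO replicates 8 and 10 were in the range of the other WT libraries. The difference of 0.25 ± 0.081 did not pass (adjusted p 0.185) and was 0.33 ± 0.061 without WT replicate 5 (0.0227). In striatum WT ran from 16.5 through 21.8 to 27.3 CPM and KO from 19.6 through 26.4 to 31.0, with a difference of 0.25 ± 0.080 (adjusted p 0.541; 0.29 and 0.354 without WT replicate 5); the groups overlapped, and KO replicate 8 was the lowest KO library. In the summed counts Coro1c differed by -0.23 ± 0.035 (adjusted p 0.00218; 2.851e-06 without WT replicate 5) and Ssh1 by 0.29 ± 0.064 (0.0767; 0.000397 without WT replicate 5 and 0.0233 without KO replicate 8).

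Gcn1l1 (115565254 to 115622654, plus strand) was the member that passed in each of the 3 regions, higher in KO. In hippocampus it ran from 84.7 through 88.3 to 104 CPM in WT and from 90.5 through 105 to 117 in KO. In prefrontal cortex it ran from 67.4 through 75.3 to 98.5 in WT and from 83.2 through 92.9 to 101 in KO, and in striatum from 62.3 through 71.7 to 89.2 and from 79.2 through 92.4 to 107. The top WT library was replicate 5 in each region, and the lowest KO library was replicate 7 in each region. With WT replicate 5 aside, WT ended at 93.7, 77.5 and 76.1 CPM, so that in prefrontal cortex and striatum it lay below every KO library. The KO mean was 1.17, 1.22 and 1.26 times the WT mean in hippocampus, prefrontal cortex and striatum. The log2 differences were 0.23 ± 0.043 (adjusted p 0.0249), 0.29 ± 0.054 (0.0284) and 0.33 ± 0.058 (0.0233), and 0.28 ± 0.046 in the summed counts (0.00562). Without WT replicate 5 they were 0.25, 0.34, 0.37 and 0.31, with adjusted p from 3.388e-05 to 0.00257.

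Hspb8 (116408491 to 116422864, minus strand) had the largest difference among the members that passed in a region. In hippocampus it ran from 9.25 through 16.7 to 17.8 CPM in WT and from 4.87 through 7.41 to 12.7 in KO, a KO mean of 0.519 times the WT mean. WT replicate 5 was the lowest WT library, and KO replicates 8 (12.7) and 7 (11.2) were the highest KO libraries; the groups overlap through WT replicates 5 and 7 and KO replicates 2, 5, 7 and 8. The difference was -0.94 ± 0.17 (adjusted p 0.0295), and -1.01 ± 0.17 without WT replicate 5 (0.00844). In prefrontal cortex WT ran from 4.82 through 12.4 to 14.0 CPM and KO from 1.83 through 3.99 to 9.39, with WT replicate 5 and KO replicates 7 and 8 at the inner ends. The difference of -1.19 ± 0.25 did not pass (adjusted p 0.0732), and it passed without any 1 of WT replicate 5, KO replicate 5, KO replicate 7 or KO replicate 8 (0.0208 to 0.0435). In striatum WT ran from 8.62 through 11.2 to 14.8 CPM and KO from 4.78 through 8.56 to 12.4; KO replicates 7 and 8 were above the WT median there. The difference was -0.46 ± 0.15 (adjusted p 0.545; -0.50 and 0.476 without WT replicate 5), and in the summed counts it was -0.84 ± 0.16 (0.0371; 0.00684 without WT replicate 5).

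**Figure D3:**
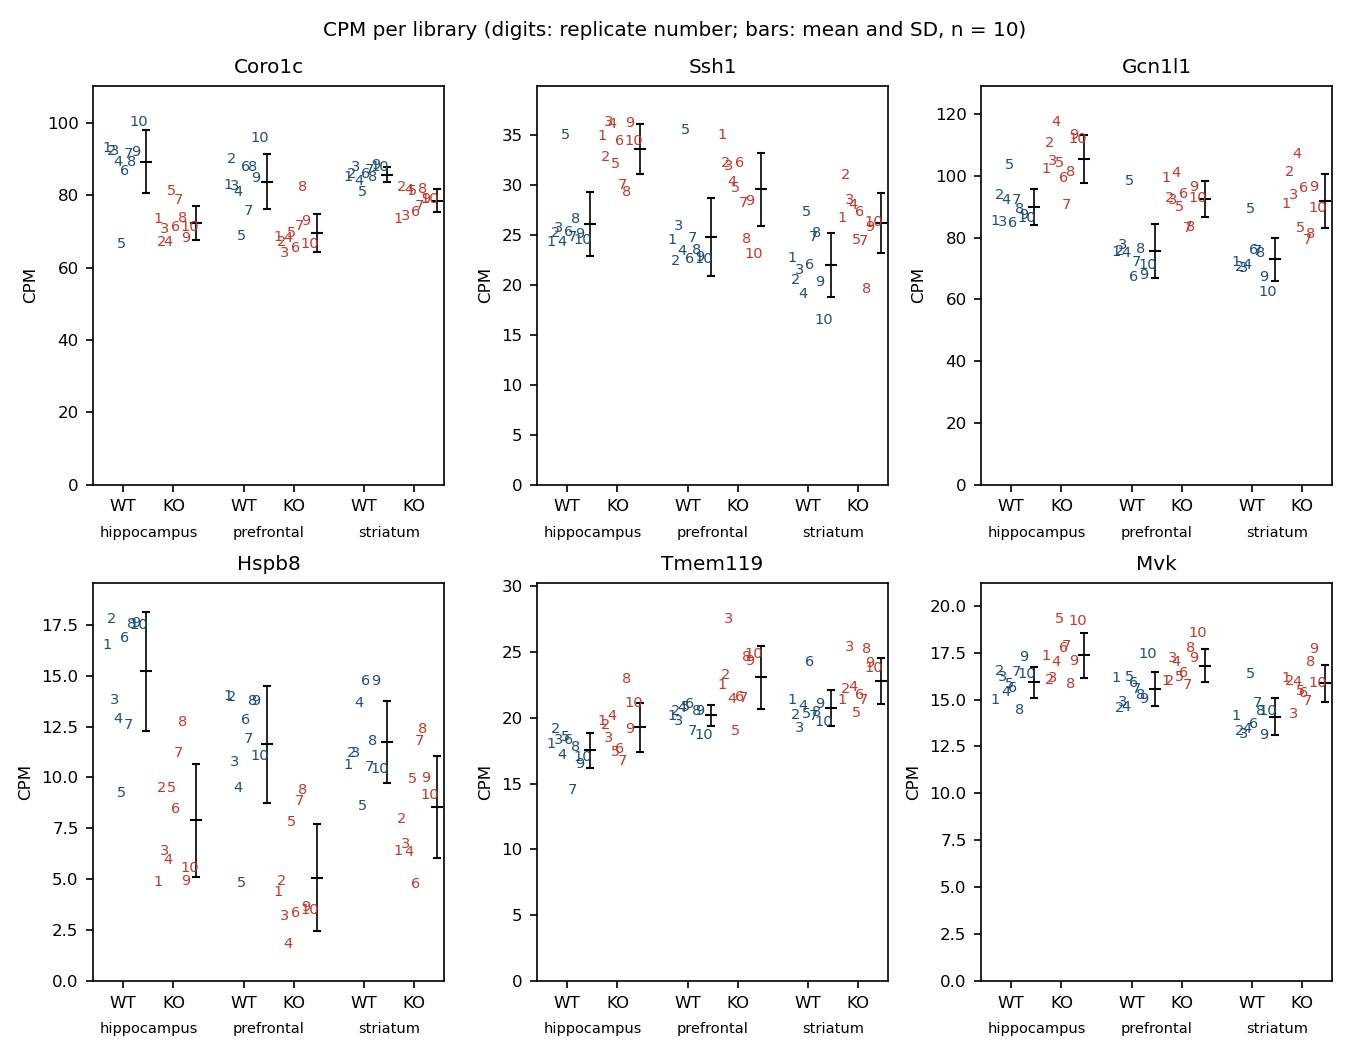
CPM (vertical axis, from 0) of 6 members in each library, by region and genotype (horizontal axis), with WT in blue and KO in red; each digit is a library's replicate number, and the black bars give the mean and SD (n = 10). WT 5 lies among the KO libraries for Coro1c, Ssh1, Gcn1l1 and Hspb8, and KO 7 and KO 8 lie nearest WT for Hspb8.

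Of the members that passed, several did so with little room. When each library was left out in turn (20 fits per comparison), Coro1c and Ssh1 in hippocampus and Coro1c and Gcn1l1 in the summed counts passed in all 20. Gcn1l1 in hippocampus lost the call without KO 4, 9 or 10 or WT 1, 3, 6, 8, 9 or 10 (adjusted p 0.0511 to 0.0731), and Hspb8 in hippocampus without KO 3, 4, 6, 9 or 10 or WT 1, 2, 6, 8, 9 or 10 (0.0501 to 0.0731). In prefrontal cortex both Coro1c (0.0525 to 0.0939) and Gcn1l1 (0.0504 to 0.0780) lost it without KO 2, 3, 4, 6, 9 or 10 or WT 1, 2, 3, 6, 8, 9 or 10. Gcn1l1 in striatum lost it without KO 2, 3, 6 or 9 or WT 1, 2, 3, 4, 9 or 10 (0.0504 to 0.0649). Hspb8 in the summed counts lost it in 15 fits, all but those without KO 5, 7 or 8 or WT 5 or 7 (0.0511 to 0.0924). None of these fits changed a sign. The number of members that passed ran from 2 to 5 in hippocampus, 0 to 5 in prefrontal cortex, 0 to 5 in striatum and 2 to 11 in the summed counts. It was 5, 5, 5 and 10 without WT replicate 5, and 11 in the summed counts without KO replicate 5. The shares of all genes in these fits are not given here, so these counts do not show whether a rise is particular to the members. Limma voom ended 2 of the calls, Coro1c in hippocampus (adjusted p 0.0549) and Pde6b in the summed counts (0.0702). Gcn1l1 in hippocampus lost the call with all 60 libraries in a single edgeR fit (0.0583) and Hspb8 in the summed counts lost it with no filter on low counts (0.0570). DESeq2 called 7 members in hippocampus (3.18% of those it tested, against 0.261% of all genes), 12 in prefrontal cortex (5.26%, against 1.28%), 6 in striatum (2.43%, against 0.14%) and 17 in the summed counts (7.69%, against 0.779%).

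In the prefrontal cortex, 4 markers of the neighbouring olfactory bulb (Eomes, Doc2g, Cdhr1 and Tbx21) had a median difference of -1.79, and their summed level ran from 5.36 to 96.4 CPM in WT and from 4.20 to 49.7 CPM in KO; none of the 4 passed. With their mean log2 CPM as a covariate, Gcn1l1 differed by 0.31 ± 0.073 (adjusted p 0.296) and Coro1c by -0.22 ± 0.068 (0.721). In that fit 0 of 211 members passed, against 0.0378% of all genes. In the summed counts the same 4 markers had a median difference of -1.30 and a summed level of 10.99 to 38.3 CPM in WT and 8.06 to 25.4 in KO. The 6 oligodendrocyte markers had a median of 0.22 in prefrontal cortex, with 1173 to 1556 CPM in WT and 1312 to 2273 in KO. The 4 choroid plexus markers had a median of -0.61 in hippocampus, with 52.5 to 2674 CPM in WT and 38.2 to 3090 in KO, and of -0.46 in the summed counts. None of these markers passed. The 5 erythrocyte markers had a median difference of -0.57 in hippocampus, -0.58 in prefrontal cortex and -0.31 in striatum, and 0 of 5 passed in each. Their summed level ran from 235 to 634 CPM in WT and from 205 to 388 in KO hippocampus. The part of these cells in the results on the members was not tested, other than by the olfactory bulb covariate.

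Mvk and Pde6b passed in the summed counts and, with all libraries, in no single region; without WT replicate 5 Mvk also passed in striatum (0.20 ± 0.039, adjusted p 0.0450, against 0.17 ± 0.044 and 0.347 with it). Mvk (114444269 to 114460591, plus strand), which encodes mevalonate kinase of the cholesterol pathway, ran from 14.5 through 15.1 to 16.1 CPM in the WT sums and from 15.9 through 16.6 to 17.9 in the KO sums. The top WT animal was replicate 5, and its value lay inside the KO range. The difference was 0.13 ± 0.026 (adjusted p 0.0329; 0.0103 without WT replicate 5), lost without KO 4, 8, 9 or 10 or WT 1, 2, 3, 4, 6, 8 or 9 (0.0536 to 0.0825). Pde6b (108388391 to 108432397, plus strand) encodes a subunit of the cyclic GMP phosphodiesterase of rod photoreceptors and was nearly silent here. It had 12 to 42 counts per WT animal and 7 to 23 per KO animal over the 3 regions, or 0.0912 through 0.244 to 0.307 CPM in WT and 0.0528 through 0.0947 to 0.161 CPM in KO. The lowest WT animal was replicate 5. The difference was -1.19 ± 0.23 (adjusted p 0.0255; 0.00264 without WT replicate 5), lost without KO 3, 4, 6, 9 or 10 or WT 1, 4, 6, 7, 9 or 10 (0.0505 to 0.0686), and Pde6b did not reach the filter in a single region.

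Tmem119 (113793729 to 113800516, minus strand), 41.9 kb before Coro1c with Selplg between them, did not pass in any comparison. In prefrontal cortex it ran from 18.7 through 20.5 to 21.1 CPM in WT and from 19.0 through 22.9 to 27.5 in KO. All KO libraries but replicate 5 lay above every WT library there, and without KO replicate 5 the difference passed (0.22, adjusted p 0.0342); with all libraries it was 0.19 ± 0.050 (0.107). The differences were 0.14 ± 0.054 in hippocampus and 0.14 ± 0.045 in striatum, and the groups overlapped in both. In hippocampus WT ran from 14.5 to 19.2 CPM and KO from 16.7 to 23.0, with 5 of 10 KO libraries above every WT library. In striatum WT ran from 19.2 to 24.2 and KO from 20.3 to 25.3; WT replicate 6 was the highest, and the next WT library was at 21.3. The difference was 0.16 ± 0.041 in the summed counts (adjusted p 0.163; 0.0407 without KO replicate 5). DESeq2 called Tmem119 in prefrontal cortex (adjusted p 0.0295) and in the summed counts (0.0300). Of 12 microglial genes outside the segment, 0 passed in any comparison, and their summed level in the summed counts ran from 515 to 575 CPM in WT and from 526.2 to 571 in KO. Cx3cr1, the fractalkine receptor of microglia, had the smallest p of the 12, at 0.07 ± 0.019 in the summed counts (adjusted p 0.224). In tissue libraries such as these, fewer cells of a type and less RNA per cell cannot be told apart.

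Sorted by role into 11 lists, members passed in the summed counts in 3 of them, where 0.162% of all genes passed (0.066% higher and 0.0959% lower). The lists were chosen with earlier results of these data known. Of 16 members of the actin and cytoskeleton list, 1 passed in the summed counts (Coro1c, lower), and the median difference was 0.01. Of 14 members in stress, chaperones and translation, 2 passed, Gcn1l1 higher and Hspb8 lower, with a median of 0.04. Of 16 members in mitochondrial and lipid metabolism 1 passed, Mvk, with a median of 0.04; Coq5, a methyltransferase of coenzyme Q synthesis, differed by 0.16 ± 0.037 (adjusted p 0.108) and passed without KO replicate 5 (0.0190) or WT replicate 5 (0.0271). The median over all 16676 genes tested in the summed counts was 0.00.

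The other 8 role lists had no member that passed with all libraries. Of their named members, Tgfbr3, Aff1, Pole, Hfm1 and, as given above, Tmem119 passed in the summed counts with 1 animal left out. Among 8 tested microglial and leukocyte surface members, Tgfbr3, a co-receptor for TGF-beta, had the smallest p, at -0.34 ± 0.076 (adjusted p 0.0833). It ran from 13.7 through 14.98 to 17.0 CPM in the WT sums and from 7.94 through 12.3 to 14.9 in the KO sums, where replicate 10 was lowest and replicate 5 highest; it passed without KO replicate 5 (0.0220) or 10 (0.0262). Among 8 developmental transcription factors, Aff1, a scaffold of the super elongation complex, differed by -0.23 ± 0.051 (adjusted p 0.0678) and passed without KO replicate 5 (0.0292) or 8 (0.00446), and Tbx3, a T-box repressor, by 0.34 ± 0.082 (0.138). Of 9 members in DNA repair and replication, Pole, the catalytic subunit of DNA polymerase epsilon, differed by -0.51 ± 0.12 (0.121; 0.0148 without WT replicate 5) and Hfm1, a meiotic helicase, by -0.26 ± 0.074 (0.198; 0.0168 without KO replicate 5). Limma voom called Tgfbr3 and Aff1 in the summed counts. The 12 tested interferon-induced members included Oasl1 at 0.49 ± 0.13 (0.164) and Oas1g at 0.27 ± 0.11 (0.392), both of the oligoadenylate synthetase family and both under 1 CPM in every sum. The OAS genes lie in a cluster of close copies, and their reads may be divided between copies.

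No member of the neuronal, signalling, crystallin or matrix lists passed. Atxn2, the ataxin-2 RNA-binding protein, differed by 0.09 ± 0.026 in the summed counts (adjusted p 0.238) and Med13l, a subunit of the Mediator kinase module, by -0.11 ± 0.047 (0.375). Sh2b3, an adaptor that restrains cytokine signalling, differed by 0.10 ± 0.031 (0.259) and Taok3, a stress-activated kinase, by -0.06 ± 0.023 (0.353). The 3 tested lens crystallins had a median of -0.20, with Crybb1 at -0.20 ± 0.12 (0.555) and Cryba4 at -0.20 ± 0.12 (0.571). Of 5 tested genes of mineralised matrix, Dmp1 differed by -0.17 ± 0.074 (0.431) and Sparcl1, an astrocyte protein of synapse formation, by -0.04 ± 0.026 (0.587).

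The partners of the called members elsewhere in the genome did not pass. Of 17 tested genes of cofilin control (other coronins and slingshots, cofilins, LIM kinases), 0 passed in any comparison; Coro2a had the smallest p in the summed counts, at 0.06 ± 0.029 (adjusted p 0.469). Of 16 genes around Gcn2, the 1 that passed was Gcn1l1 itself, and the list's median in the summed counts was 0.004. Of 12 small heat shock and chaperone-assisted autophagy genes tested in the summed counts 0 passed; Hspb1 differed by 0.29 ± 0.15 (0.515), against -0.84 for Hspb8.

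Across animals, each member that passed had KO and WT values that overlapped. Values without overlap were found at 0 of 207 tested members in hippocampus and 0 of 208 in prefrontal cortex. It was 0 of 206 in striatum and 0 of 216 in the summed counts. Of all genes 0.0321%, 0.0195%, 0.0193% and 0.03% had such values in that order, so these counts of 0 say little about the members. To describe the position of each library, the level of a gene was placed on a scale on which 0 is the WT mean and 1 is the KO mean of the region, in log2 CPM; the groups chosen by genotype fix these ends, so the scale carries no test. Over the 7 named members (Coro1c, Ssh1, Gcn1l1, Hspb8, Tmem119, Mvk and Pde6b) in 3 regions, WT replicate 5 lay nearer the KO mean in 18 of 21 values. The other 9 WT animals did so in 0 to 3. KO replicate 7 lay nearer the WT mean in 13 of 21, KO replicate 8 in 11 and KO replicate 5 in 7, and the other 7 KO animals in 1 to 5.

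On this scale the mean places of the KO animals differed between the members, which was not tested. A place is in units of the KO minus WT gap, so places are noisy where the gap is small or the counts are few. In the summed counts the gap was 0.13 for Mvk and 0.16 for Tmem119, against 1.88 for Stbd1, and Pde6b was nearly silent. For Tmem119 the WT animals alone ran from -0.92 to 0.83. Contrasts of these genes with Stbd1 or with the other members are therefore description only. Averaged over the 3 regions, WT replicate 5 stood at 1.03 for Coro1c, 1.496 for Ssh1, 1.03 for Gcn1l1, 0.82 for Hspb8, 0.96 for Pde6b and 0.59 for Mvk, and at 0.21 for Tmem119. The same animal stood at 0.83 for Naaa (92257659 to 92278170, a lysosomal amidase) and at 0.97 for Stbd1 (92603041 to 92606579, a glycogen-binding protein), genes that lie between Adgrl3 and the segment and passed in each region. KO replicate 8 stood at -0.04 for Ssh1 and 0.08 for Hspb8 but at 1.08 for Mvk and 2.19 for Tmem119. KO replicate 7 stood at 0.30 for Gcn1l1, 0.21 for Hspb8 and 0.12 for Tmem119 but at 0.87 for Coro1c, and KO replicate 5 stood at -0.24 for Tmem119 and 0.50 for Hspb8. The lowest KO animal stood at 0.75 at Naaa and at 0.82 at Stbd1, so that no KO animal stood, on average, on the WT side there. Genotypes of single animals at these positions were not analysed here, and the animals' places were read off the same levels that the tests use.

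**Figure D4:**
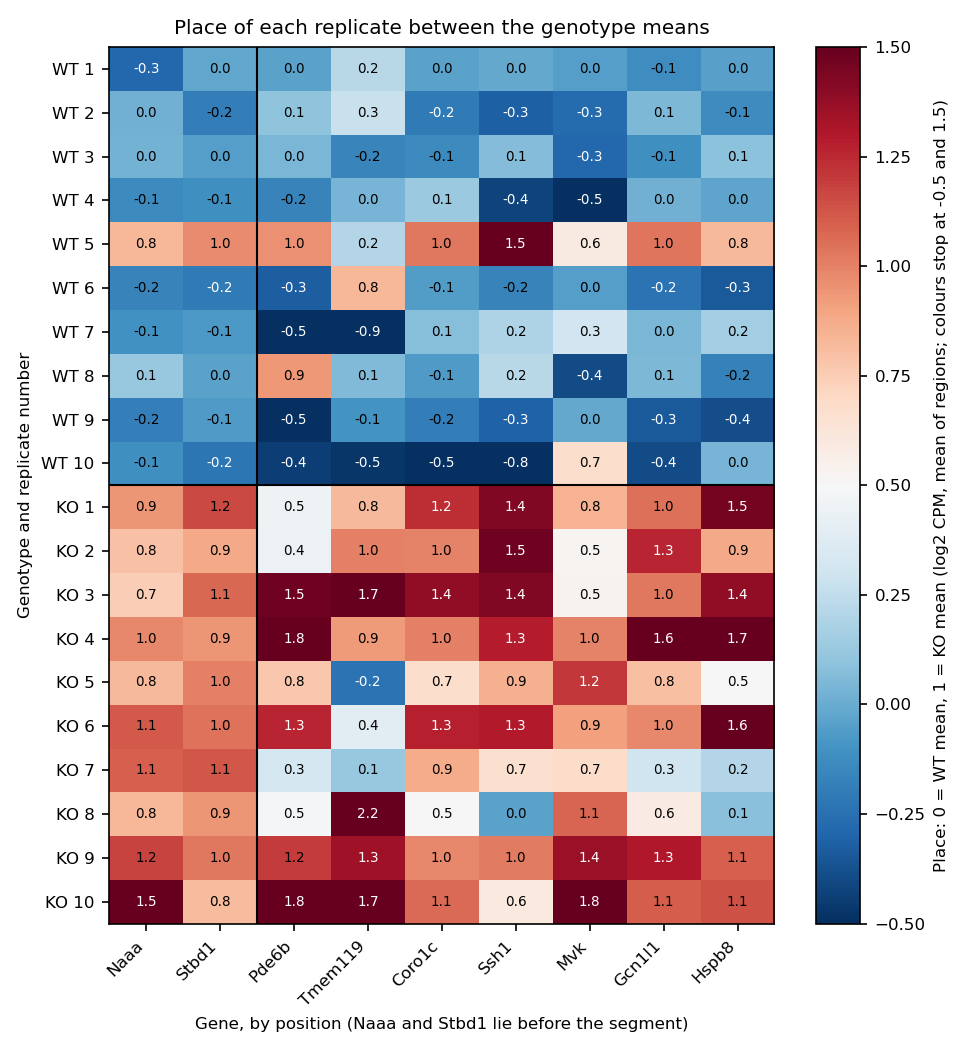
Place of each animal, by genotype and replicate number (vertical axis), on the scale from the WT mean (0) to the KO mean (1) for 7 members and, left of the black line, 2 genes that lie before the segment (horizontal axis, by position); each cell is the mean of 3 regions in log2 CPM and colours stop at -0.5 and 1.5. WT 5 stands at 0.59 or above at 8 of the 9 genes and at 0.21 at Tmem119; KO 7 and KO 8 are pale or blue at several members and red at Naaa and Stbd1.

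In WT brain, the members' levels differed between regions as follows. The CPM levels were scaled within each region and are not on a common scale. Calls and fold changes between regions come from a joint fit of the WT libraries, which takes them as independent although the 3 regions share animals. With an adjusted p under 0.05 and a log2 fold change of 1 or more in size, striatum and hippocampus differed at 12 of 210 members (5.71%), against 10.2% of all genes. It was 9 members for prefrontal cortex against hippocampus (4.29%, against 10.1% of all genes) and 14 for striatum against prefrontal cortex (6.67%, against 11.6%). With the replicate number as a block, 14, 13 and 16 members passed in that order (6.51%, 6.05% and 7.44%), against 10.7%, 11% and 12.5% of all genes. Plcxd1, a phospholipase-domain protein, was at 6.59 ± 0.69 CPM (SD, n = 10) in hippocampus, 19.7 ± 1.5 in prefrontal cortex and 28.3 ± 3.0 in striatum, a log2 fold change of 2.16 ± 0.062 (SE) from hippocampus to striatum (adjusted p 2.896e-24). Fam222a stood at 7.08 ± 1.8, 8.81 ± 1.2 and 28.6 ± 5.4 CPM in the same order. Sez6l, a neuronal membrane protein, was lower in striatum, at 129 ± 23 CPM against 330 ± 13 in hippocampus, and Galnt9, a brain glycosyltransferase, was at 112 ± 12, 117 ± 17 and 41.2 ± 9.1 CPM. Trpv4, a calcium channel of ependyma and choroid plexus among other tissues, was at 5.58 ± 3.4 CPM in hippocampus and 1.11 ± 0.31 in prefrontal cortex; choroid plexus markers ran from 52.5 to 2674 CPM in WT hippocampus, and their part in this value was not tested. None of these 5 members passed in a comparison of KO with WT.

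Other regional members were Cit, a citron kinase (57.1 ± 12, 132 ± 11 and 150.2 ± 15 CPM in hippocampus, prefrontal cortex and striatum), and Gltp, a glycolipid transfer protein (28.2 ± 3.0, 19.8 ± 1.3 and 50.1 ± 8.7). Cds1, which makes CDP-diacylglycerol, was lower in striatum than in prefrontal cortex, by -1.19 ± 0.056 (SE) on the log2 scale. It stood at 83.5 ± 11, 139 ± 6.3 and 62.1 ± 5.1 CPM in hippocampus, prefrontal cortex and striatum. Dmp1, a matrix phosphoprotein, was also lower in striatum than in prefrontal cortex, by -1.20 ± 0.11 (SE). It stood at 4.09 ± 0.74, 6.99 ± 1.2 and 3.08 ± 0.48 CPM in the same order. Neither was called between prefrontal cortex and hippocampus. Spp1, the secreted protein osteopontin, stood at 3.60 ± 1.6, 7.57 ± 2.3 and 11.1 ± 3.9 CPM in hippocampus, prefrontal cortex and striatum. Cfap73, Barhl2, Hpse, Iqcd, Myo1h and Chek2 also passed and had means under 2 CPM in each WT region. Per kb of gene, the most abundant members over all libraries were Pebp1, a Raf kinase inhibitor, at 64.98 CPM per kb, Dynll1, the dynein light chain, at 48.3, Sparcl1 at 38.8, Gm42517 at 22.1 and Hnrnpdl at 17.9; none of the 5 passed in a comparison of KO with WT.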

How the data were processed

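The data are raw read counts, as whole numbers per gene, that the authors deposited for 21950 protein-coding genes in 60 mouse brain libraries. Counting was over the full span of a gene with its introns, per the file headers, and the build is GRCm38. The tools named in the submitters' processing notes are STAR 2.5.2b, bedtools, DESeq2 1.16.1, cutadapt 1.16 and FastQC 0.11.4, with no role given. Genes that overlap on the same strand can share reads: 15 members overlap such a gene, and 0 of the 7 members named most do. Within each group, no pair of libraries agreed within sampling noise; the lowest chi-square per degree of freedom was 5.57.

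KO and WT were compared per region (20 libraries) and on counts summed per genotype and replicate number over the 3 regions (20 sums), with edgeR 4.0.16 in R 4.3.3: TMM scaling, filterByExpr, robust quasi-likelihood F test, and Benjamini-Hochberg adjustment over all genes tested (0.05). The interaction of genotype and region was tested on 60 libraries, and WT regions on 30, where a call also needed a log2 fold change of 1 or more in size. Levels are CPM after TMM scaling within a region, or among the sums, so CPM of different regions are not on a common scale. Differences are log2 KO minus WT with their SE, and places use log2 CPM with a prior count of 0.5. No label says that the libraries came from separate animals, so p-values measure the spread between these samples. At 20 simulated hippocampus libraries 15524 genes were tested, of which 100 were changed by 0.3 and 99 by 1 on the log2 scale. The test recovered 65% and 98% of them, with 6.36% false calls among calls. In the hippocampus data 20 of 15581 genes passed, so the adjustment was stricter there than in the simulation. The simulated counts were independent, with no animal like WT replicate 5, so recovery in these data may be lower.

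The members and lists were chosen with earlier results of these data known. Named genes are Adgrl3, the 5 marker members, every member that passed, up to 2 members of smallest p per role list, 1 gene of smallest p per outside list, up to 4 higher and 4 lower per WT region contrast, the genes at the bounds, and the 5 of highest CPM per kb; Naaa, Stbd1 and Selplg were named after their values were seen. Alternatives were DESeq2 1.42.0, limma voom 3.58.1 with quality weights, RLE scaling, other filters, all 60 libraries in a single fit, a random effect of the animal, an olfactory bulb covariate, the replicate number as a block, and leaving out each replicate. Some genes of the segment are not reported here.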

Additional observations from a re-analysis of the deposited data

Results flagged for a closer look

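In the 42 groups of 10 libraries formed by the 7 named members, 3 regions and 2 genotypes, 10 held a library that stood apart from the others by Dixon's criterion for its gap. Chance flags about 1 in 20 groups, but these groups come from the same animals and from genes named mostly because they passed, so their number is no test. Of the 10, 8 were WT replicate 5. Its Coro1c level in hippocampus was the lowest of WT at 66.5 CPM, and its Hspb8 level in prefrontal cortex was the lowest at 4.82 CPM. Its Ssh1 level was the highest of WT in hippocampus (35.0 CPM) and in prefrontal cortex (35.5 CPM), and its Mvk level was the highest in striatum (16.4 CPM). Its Gcn1l1 level was the highest of WT in hippocampus (104 CPM), prefrontal cortex (98.5 CPM) and striatum (89.2 CPM). The other 2 were KO replicate 8, the highest of KO for Coro1c in prefrontal cortex at 82.2 CPM, and WT replicate 6, the highest of WT for Tmem119 in striatum at 24.2 CPM.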

How the results depend on the processing

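The number of members that passed depended on the tool. With DESeq2 it was 7 in hippocampus, 12 in prefrontal cortex, 6 in striatum and 17 in the summed counts, against 4, 2, 1 and 5, while 0.261%, 1.28%, 0.14% and 0.779% of all genes passed. All 60 libraries in a single fit gave 14 in prefrontal cortex (1.29% of all genes) and 3 in striatum (0.136%). Over the regions together, 60 libraries with a term for region, each taken as independent, gave 43 (4.06% of all genes), and voom with the animal as a random effect gave 19 (1.19%). The olfactory bulb covariate gave 0 in prefrontal cortex (0.0378% of all genes). With the replicate number as a block the count was 0 in hippocampus, 0 in prefrontal cortex, 0 in striatum and 0 in the summed counts. Of all genes 0.0308%, 0.0624%, 0.0186% and 0.0693% passed in that order, so these counts of 0 say little about the members. KO and WT libraries of equal number did not deviate together (mean correlation -0.112, 0.0254 and -0.0595 in hippocampus, prefrontal cortex and striatum). A library correlated best with its own number for 0, 1 and 0 of 10, so the numbers pair no KO with a WT. The causes of these differences were not tested. Leaving out each replicate gave 2 to 5 in hippocampus, 0 to 5 in prefrontal cortex, 0 to 5 in striatum, 2 to 11 in the summed counts and 0 for the interaction. These ranges count members only, without the share of all genes. The interaction stayed at 0 and the 3 WT region counts within 1.5 times under each alternative run. Of 2381 values of the named members' differences under the alternatives, 111 lost the call and 59 gained it. In 18 the sign changed, for Oas1g and Sparcl1 in striatum and Dmp1 in prefrontal cortex, and 0 of these passed under either setting. At this number of libraries, differences near 0.3 on the log2 scale are not always recovered.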
